A study of Macaca mulatta with 6 samples.

Results

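The genes described here carry out or control the synthesis of cholesterol and of fatty acids. They were followed in RF/6A cells, described as a rhesus macaque endothelial line from the choroid and retina. Members were taken from a list of 36 gene symbols, in which SC5D and SC5DL, and MSMO1 and SC4MOL, are newer and older names of the same genes, so that the list stands for 34 genes. By symbol 32 were found in the deposited table, ACAT2 was found through its gene identifier, and CYP51A1 was not analysed here, which gave 33 members among 24932 genes. By role they comprised 5 genes of SREBP control, 7 of the mevalonate steps, 10 of the squalene and sterol steps, 2 of sterol uptake and transport, 2 of sterol efflux and 7 of fatty acid synthesis. Treated cells spent 4 hours in 50% normal human serum, which holds active complement, the plasma protein cascade that ends in a membrane-piercing pore named the membrane attack complex (3 libraries). Their controls spent 4 hours in 50% human serum whose complement had been inactivated by heat (3 libraries). Cells of both groups were of the same line and had been grown to confluence on porous inserts in medium with fetal bovine serum before the treatment. No sample had complement blocked or depleted in another way, so active complement and other serum components that heat alters cannot be told apart. Nothing in the labels states that a replicate is its own culture, and the p-values rest on library-to-library spread that may be no more than technical.

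Cells make cholesterol from acetyl-CoA through mevalonate, farnesyl diphosphate, squalene and lanosterol, and make fatty acids from the same precursor through malonyl-CoA. Both routes are under the control of the SREBPs, transcription factors encoded by SREBF1 and SREBF2 that are held in the endoplasmic reticulum as membrane proteins. When sterols are scarce, the escort protein encoded by SCAP carries them to the Golgi for cleavage, and when sterols are plentiful the INSIG proteins retain the escort. Oxysterols, which accumulate with cholesterol, act through LXR receptors to raise the efflux transporters ABCA1 and ABCG1. In endothelial cells, membrane cholesterol is a main component of caveolae.

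Levels are given in FPKM, fragments scaled to transcript length and to library size, summed over the annotated transcripts of a gene. Differences are on the log2(FPKM + 1) scale, normal serum minus heat-inactivated serum, from a limma fit of every gene averaging 1 FPKM or more over the libraries, with p-values adjusted over all of them. The lowest values placed the depth at between 14600000 and 17800000 fragments in replicates 2 and 3 of both groups, where 100% of them were whole multiples of what 1 fragment adds. In the replicate 1 libraries 48.5% and 52.5% were whole, so their depths, read as 14500000 and 16100000 fragments, are approximate. The replicate 1 libraries of both groups also stood apart from the others on a principal component with 13.2% of the variance, while the groups separated on one with 61.1%. Of 12 endothelial markers 11 were found and 3 reached a mean of 1 FPKM, of which PECAM1 and ESAM were higher in normal serum and 0 were lower. The other 8 were too low to be tested. Among them KDR was lower, at 0.118, 0.0472 and 0.149 FPKM in normal serum, against 0.389, 0.392 and 0.328 FPKM in heat-inactivated serum. VWF was higher, at 1.13, 1.04 and 0.998 FPKM in normal serum, against 0.179, 0.181 and 0.157 FPKM in heat-inactivated serum. The summed level of the 11 was 19.7 to 21.7 FPKM in normal serum and 11.7 to 13.6 FPKM in heat-inactivated serum. CDH5, the defining cadherin of endothelium, stood at 0.0185, 0 and 0.0146 FPKM in normal serum and was listed at 0 in all heat-inactivated serum libraries. Of 11 mural and fibroblast markers found 10 were tested, of which 8 were lower (80%) and 1 higher (10%). Across all genes tested 26.1% were lower and 27.8% higher, shares that also stand beside the endothelial and macrophage counts. COL1A1, COL3A1, DCN (log2 -2.39), LUM, PDGFRA, PDGFRB, ACTA2 and RGS5 were lower. CSPG4 went the other way (log2 1.43), and FAP did not pass the threshold. The summed level of the 11 was 3320 to 3460 FPKM in normal serum and 6820 to 7380 FPKM in heat-inactivated serum. Of 6 macrophage markers found 3 were tested, of which LYZ was lower (adjusted p = 0.0320, with overlapping groups) and 0 were higher. CD68 and LYZ led in level, with means of 7.97 and 6.49 FPKM over all 6 libraries. PTPRC stayed at or below 0.0509 FPKM, and AIF1 was listed at 0 in all 6 libraries. The summed level of the 6 was 13.5 to 16.0 FPKM in normal serum and 14.5 to 19.0 FPKM in heat-inactivated serum. The endothelial markers were thus low beside the mural and fibroblast markers, and whether the cells keep an endothelial identity was not tested. The part of these marker differences in the results below was not tested.

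In normal serum 14 of the 31 members tested were lower and 4 were higher (limma, adjusted p under 0.05). These were 45.2% and 12.9% of the members tested. The count of higher members was 1 without normal serum replicate 1 or heat-inactivated serum replicate 3 and 2 without heat-inactivated serum replicate 1. Across all 11818 genes tested 26.1% were lower and 27.8% higher, or 54.0% in either direction. The members' median log2 difference was -0.25, and that of all genes was 0.01. The remaining 13 members did not pass the threshold, and ABCA1 and ABCG1 were too low to be tested. The groups did not overlap in any library for 14 lower and 4 higher members, beside 30.5% and 32.1% of all genes, or 62.6% in either direction. These are bulk libraries, in which fewer cells of a kind and less RNA per cell cannot be told apart. SCD, INSIG1, FADS1, TM7SF2 and FADS2 had the largest falls, with log2 differences between -1.09 and -0.85, whereas the largest rise was 0.37.

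**Figure D1:**
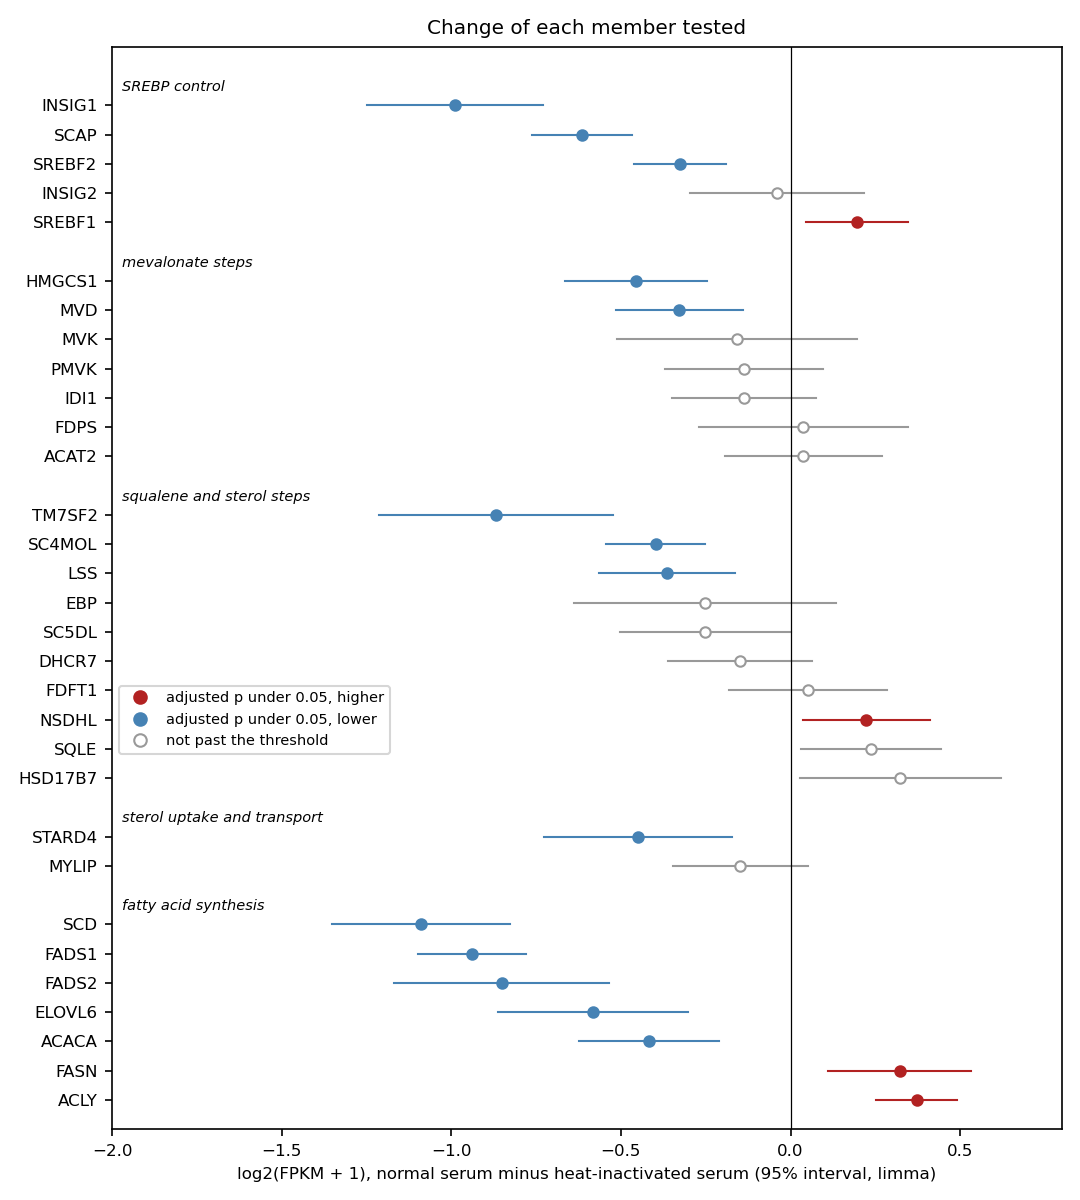
Log2 difference (normal serum minus heat-inactivated serum, x axis) of the 31 members tested, grouped by role, with 95% intervals from limma. The 14 lower members run from -1.09 for SCD to -0.33 for SREBF2, and the 4 higher members from 0.20 for SREBF1 to 0.37 for ACLY.

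Among the genes that control the SREBPs, INSIG1, SCAP and SREBF2 fell and SREBF1 rose. INSIG1 (chromosome 3), which encodes a retention protein and is itself a target of SREBP, had 4.52, 5.08 and 3.82 FPKM in normal serum, against 10.1, 8.80 and 10.6 FPKM in heat-inactivated serum. The groups were well apart, and the normal serum mean was 0.455 of that in heat-inactivated serum (log2 -0.99 ± 0.11 SE, adjusted p = 0.000328). Its relative INSIG2 had 2.83, 3.28 and 3.84 FPKM in normal serum and 3.54, 3.27 and 3.46 FPKM in heat-inactivated serum. These ranges overlapped, and the log2 difference was -0.04 with a 95% interval of -0.30 to 0.22 (adjusted p = 0.774). SCAP, on chromosome 2, encodes the escort itself, and it had 36.8, 33.8 and 35.1 FPKM in normal serum, against 56.6, 52.0 and 55.0 FPKM in heat-inactivated serum. All 3 normal serum libraries lay below all 3 others, with a ratio of means of 0.647 (log2 -0.62 ± 0.06 SE, adjusted p = 0.000211).

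SREBF2 and SREBF1 encode the factors best known for sterol genes and for fatty acid genes, and their transcripts went opposite ways. SREBF2 (chromosome 10) had 48.1, 51.6 and 50.1 FPKM in normal serum, against 60.8, 64.9 and 62.8 FPKM in heat-inactivated serum. That was a fall with no overlap of the groups, to 0.795 of the mean of the controls (log2 -0.33 ± 0.06 SE, adjusted p = 0.00256). SREBF1 (chromosome 16) had 81.2, 72.2 and 74.3 FPKM in normal serum, against 66.7, 67.4 and 64.1 FPKM in heat-inactivated serum. The rise was small, 1.15 times in mean FPKM (log2 0.20 ± 0.06 SE, adjusted p = 0.0339). Its call ended on removal of any single library except normal serum replicate 2 (adjusted p between 0.0571 and 0.108), within replicates 2 and 3 (0.0939) and under each other scaling of the libraries (0.544 to 0.925). The ratio of SREBF1 to SREBF2 within a library does not depend on a scaling factor, and it was 1.69, 1.40 and 1.48 in normal serum and 1.10, 1.04 and 1.02 in heat-inactivated serum. Likewise, the ratio of INSIG1 to INSIG2 was 1.60, 1.55 and 0.995 in normal serum and 2.85, 2.69 and 3.07 in heat-inactivated serum. Both ratios, chosen after their values were seen and not tested, had groups that did not overlap.

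For 17 members the table lists several transcripts, and for SREBF2 the division between them was less steady than the sum. The 3336-base and 3342-base transcripts of SREBF2 exchanged places between libraries: the longer one held 60.5 FPKM in heat-inactivated serum replicate 1 but 0.0462 and 0.0530 FPKM in replicates 2 and 3. In normal serum it held 13.6, 0.0517 and 9.97 FPKM. Neither SREBF2 transcript was called when tested alone (adjusted p = 0.873 and 0.540), and taking the highest transcript for the gene turned the SREBF2 difference to 1.27 (adjusted p = 0.49), so the fall holds for the sum. For INSIG1 a 423-base transcript was listed at 0 in all normal serum libraries and at 1.59, 0.00307 and 2.75 FPKM in heat-inactivated serum, and another 423-base model on an unplaced scaffold was at 0 in all libraries. The 2473-base transcript by itself still fell (log2 -0.78 ± 0.11 SE, adjusted p = 0.00276). Of the SCAP transcripts the longest, at 3943 bases, fell (log2 -0.57 ± 0.15 SE, adjusted p = 0.0273). MYLIP, on chromosome 4, showed a fall of its 1697-base transcript alone, which had 1.31, 1.65 and 1.84 FPKM in normal serum, against 3.31, 2.72 and 3.41 FPKM in heat-inactivated serum (log2 -0.67 ± 0.14 SE, adjusted p = 0.0111). Its 2804-base transcript stood at 7.36, 8.55 and 7.76 FPKM in normal serum and 7.34, 7.14 and 7.94 FPKM in heat-inactivated serum (adjusted p = 0.565). In all, 12 of 43 member transcripts tested were lower and 3 higher, beside 18.6% and 21.0% of the 15719 transcripts tested, or 39.6% in either direction. The 15 called became 8 without heat-inactivated serum replicate 2 and 9 within replicates 2 and 3.

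**Figure D2:**
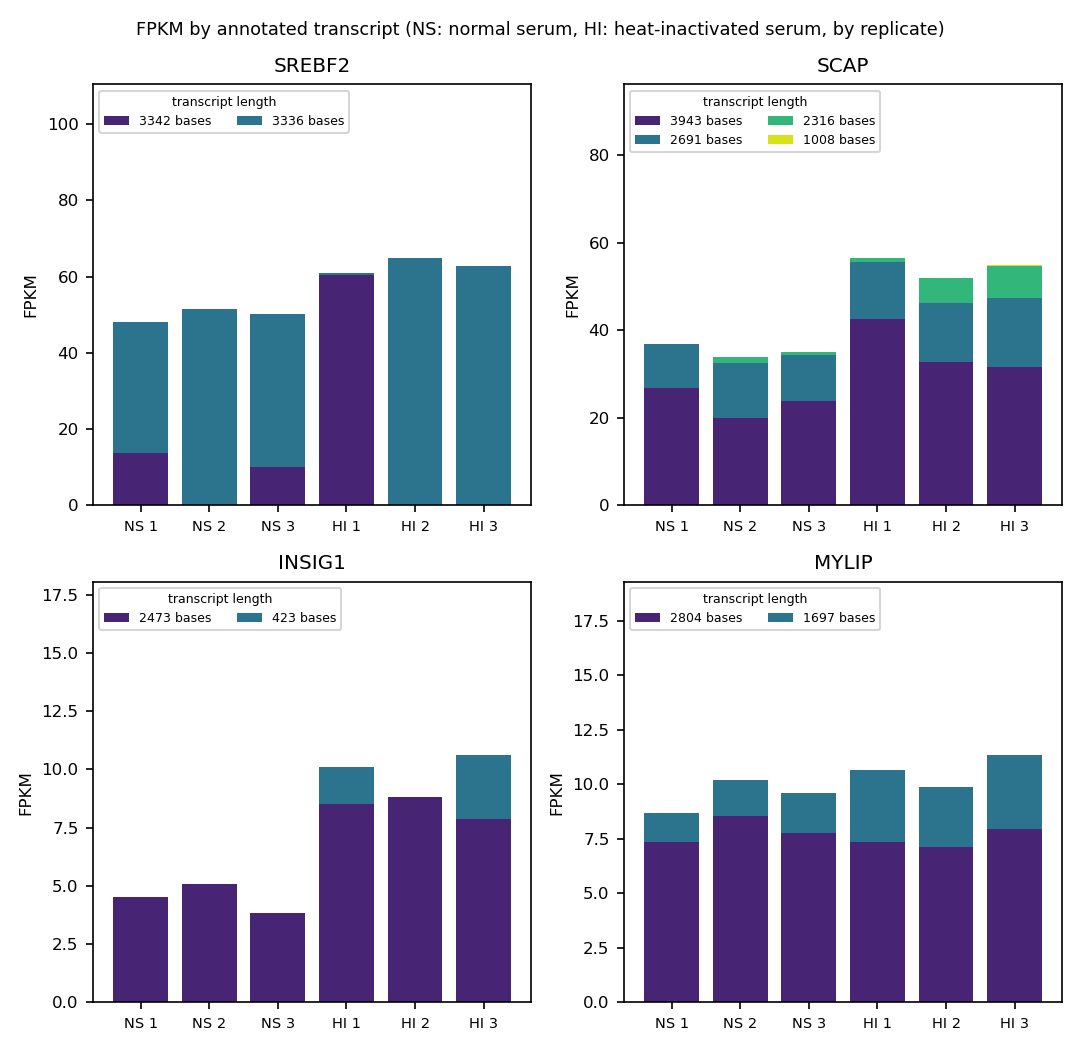
FPKM (y axis) of SREBF2, SCAP, INSIG1 and MYLIP in each library, stacked by annotated transcript and labelled by transcript length in bases. The SREBF2 bars are alike in height within a group although the 3342-base transcript fills nearly all of heat-inactivated serum replicate 1 and almost none of replicates 2 and 3.

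The mevalonate steps lead from acetyl-CoA to farnesyl diphosphate, and 2 of their 7 genes fell and 0 rose. The share lower, 28.6%, was near the 26.1% of all genes. HMGCS1 (chromosome 6), the synthase that makes HMG-CoA, had 7.72, 8.95 and 7.10 FPKM in normal serum, against 11.0, 11.1 and 11.5 FPKM in heat-inactivated serum. The groups did not overlap, and the ratio of means was 0.707 (log2 -0.46 ± 0.09 SE, adjusted p = 0.00410). MVD (chromosome 20), the decarboxylase that makes isopentenyl diphosphate, had 13.2, 14.0 and 13.0 FPKM in normal serum, against 18.3, 17.6 and 15.4 FPKM in heat-inactivated serum. It fell to 0.783 of the mean of the controls (log2 -0.33 ± 0.08 SE, adjusted p = 0.0108), a call that was lost within replicates 2 and 3 (log2 -0.27, adjusted p = 0.0613).

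The other mevalonate genes did not pass the threshold, and their groups overlapped. FDPS, which makes farnesyl diphosphate and led this role in level, ranged from 84.5 to 99.6 FPKM in normal serum and from 71.2 to 100.1 FPKM in heat-inactivated serum. In humans FDPS has processed pseudogenes, and reads shared with near-identical copies could not be told apart. The thiolase gene ACAT2, the mevalonate kinase gene MVK, the phosphomevalonate kinase gene PMVK and the isomerase gene IDI1 had log2 differences between -0.16 and 0.04 (adjusted p from 0.239 to 0.767). Their 95% intervals were -0.19 to 0.27 for ACAT2, -0.51 to 0.20 for MVK, -0.37 to 0.094 for PMVK and -0.35 to 0.076 for IDI1. Those of MVK, PMVK and IDI1 include a fall as large as that of MVD. MVK was the lowest of the role, at 1.84 ± 0.152 FPKM in normal serum and 2.21 ± 0.595 FPKM in heat-inactivated serum (SD, n = 3 each).

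The squalene and sterol steps had 3 genes lower, 1 higher and 6 not past the threshold. The share lower, 30.0%, was near the 26.1% of all genes, and the share higher was 10.0% beside 27.8%. TM7SF2, on chromosome 14, encodes a sterol reductase that acts after lanosterol, and it had 9.34, 6.08 and 6.84 FPKM in normal serum, against 15.7, 14.2 and 12.7 FPKM in heat-inactivated serum. This was the largest fall among the synthesis enzymes of the sterol route, to 0.522 of the mean of the controls (log2 -0.87 ± 0.15 SE, adjusted p = 0.00211). SC4MOL (chromosome 5), the methylsterol monooxygenase also named MSMO1, had 24.2, 24.3 and 22.1 FPKM in normal serum, against 31.2, 31.6 and 31.0 FPKM in heat-inactivated serum. Its replicates were tight in both groups, and the log2 difference was -0.40 ± 0.06 SE (adjusted p = 0.00150). LSS (chromosome 3), which closes the rings to form lanosterol, had 4.42, 4.28 and 4.34 FPKM in normal serum, against 6.50, 5.74 and 5.46 FPKM in heat-inactivated serum. It fell to 0.737 of the mean of the controls (log2 -0.36 ± 0.09 SE, adjusted p = 0.00921).

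NSDHL (chromosome X), a dehydrogenase that acts in the removal of methyl groups from sterols, had 23.8, 26.3 and 22.9 FPKM in normal serum, against 19.1, 21.4 and 21.6 FPKM in heat-inactivated serum. The rise was at the edge of the threshold (log2 0.22 ± 0.08 SE, adjusted p = 0.0475). It was lost on removal of any single library except normal serum replicate 3 (adjusted p between 0.0685 and 0.151), within replicates 2 and 3 (0.139), with low genes kept in the fit (0.0634), with its highest transcript in place of the sum (0.122) and under each other scaling (0.129 to 0.539). SQLE (chromosome 8), the squalene epoxidase, had 26.1, 27.6 and 23.7 FPKM in normal serum and 20.2, 24.0 and 21.1 FPKM in heat-inactivated serum. Those ranges overlapped, and the difference of 0.24 ± 0.09 SE narrowly missed the threshold (adjusted p = 0.0539). SQLE passed it without normal serum replicate 3 (adjusted p = 0.0392) or heat-inactivated serum replicate 2 (0.0289) and with a block for replicate number (0.026). It also passed with a filter of 5 FPKM (0.0466), a robust variance model (0.0491) or transcripts under 300 bases left out (0.0422). HSD17B7, a ketosteroid reductase with a known pseudogene in humans, lay at 0.32 ± 0.13 SE (adjusted p = 0.0630). It passed without normal serum replicate 3 (adjusted p = 0.0161) or with transcripts under 300 bases left out (0.0433).

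EBP, the sterol isomerase gene, had 42.7, 35.9 and 26.1 FPKM in normal serum and 45.0, 38.0 and 40.2 FPKM in heat-inactivated serum. Its coefficient of variation in normal serum, 23.9%, was the highest of the members tested there, and the difference of -0.25 was called only without normal serum replicate 1 (adjusted p = 0.0491) or after rescaling to the total of transcripts of at least 300 bases (adjusted p = 0.0474). SC5DL, the lathosterol oxidase also named SC5D, had a difference of -0.25 ± 0.11 SE (adjusted p = 0.0851). It passed without normal serum replicate 1 (adjusted p = 0.0369) or heat-inactivated serum replicate 2 (0.0492). It also passed after rescaling to the total (0.0313), with equal upper quartiles (0.0216) and after rescaling to the total of transcripts of at least 300 bases (0.0156). The same held when the fit had a term that set the replicate 1 libraries apart (0.0272) or a block for replicate number (0.0163). DHCR7, which carries out the final reduction to cholesterol, averaged 23.9 ± 2.42 FPKM in normal serum and 26.6 ± 1.88 FPKM in heat-inactivated serum (SD, n = 3 each, adjusted p = 0.203). FDFT1, the squalene synthase, averaged 37.2 ± 2.27 FPKM in normal serum and 36.0 ± 4.57 FPKM in heat-inactivated serum (SD, n = 3 each, adjusted p = 0.683).

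Of the genes of sterol uptake and transport, STARD4 fell. STARD4 (chromosome 6), a soluble carrier of cholesterol, had 2.25, 1.85 and 2.00 FPKM in normal serum, against 2.90, 2.85 and 3.70 FPKM in heat-inactivated serum. The groups did not overlap (log2 -0.45 ± 0.12 SE, adjusted p = 0.0147), and the call was lost with quantile normalization (log2 -0.31, adjusted p = 0.0679). MYLIP, which encodes a ubiquitin ligase that targets lipoprotein receptors, had 8.67, 10.2 and 9.60 FPKM in normal serum and 10.7, 9.86 and 11.3 FPKM in heat-inactivated serum. Its sum over transcripts did not pass the threshold (log2 -0.15 ± 0.09 SE, adjusted p = 0.179).

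Both efflux transporters were scarce in these cells. ABCA1, which loads cholesterol onto lipid-poor apolipoproteins, stood at 0.0113, 0 and 0.0274 FPKM in normal serum, about 1, 0 and 3 fragments. In heat-inactivated serum it stood at 0.240, 0.0681 and 0.133 FPKM, about 24, 7 and 12 fragments. No normal serum library reached the lowest of the controls, but a listing at 0 allows up to 0.0325 FPKM (3 fragments, counting error only) in that library. ABCG1, which exports cholesterol to lipoprotein particles, had 0.681, 0.709 and 0.810 FPKM in normal serum and 1.06, 0.796 and 1.16 FPKM in heat-inactivated serum, with an overlap. When low genes were kept in the fit, where 38.6% of genes were called in either direction, ABCA1 had a log2 difference of -0.18 (adjusted p = 0.0612) and ABCG1 one of -0.21 (adjusted p = 0.120).

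All 7 genes of fatty acid synthesis passed the threshold, beside 54.0% of all genes, and they went in both directions. The share lower was 71.4%, beside 26.1% of all genes, and the share higher, 28.6%, was near the 27.8% of all genes. ACLY and FASN rose, while ACACA, SCD, ELOVL6, FADS1 and FADS2 fell. ACLY (chromosome 16), which makes cytosolic acetyl-CoA from citrate, had 81.9, 79.7 and 80.7 FPKM in normal serum, against 62.2, 61.1 and 63.3 FPKM in heat-inactivated serum. Its replicates agreed closely, with a rise that left the groups far apart (log2 0.37 ± 0.05 SE, adjusted p = 0.000798), although the table annotates only 454 bases of it. The call ended after rescaling to the same total FPKM (log2 0.23, adjusted p = 0.0621). FASN (chromosome 16), the fatty acid synthase, had 31.6, 27.4 and 30.4 FPKM in normal serum, against 25.0, 24.9 and 21.0 FPKM in heat-inactivated serum. The rise was 1.26 times (log2 0.32 ± 0.09 SE, adjusted p = 0.0188), and the call was lost within replicates 2 and 3 (0.0512) and without normal serum replicate 1 (0.0552), normal serum replicate 3 (0.0559) or heat-inactivated serum replicate 3 (0.0558). ACACA (chromosome 16), the carboxylase that makes malonyl-CoA, had 4.35, 5.22 and 4.82 FPKM in normal serum, against 6.40, 6.70 and 7.11 FPKM in heat-inactivated serum. It fell to 0.712 of the mean of the controls (log2 -0.42 ± 0.09 SE, adjusted p = 0.00565), and with its highest transcript in place of the sum the call ended (log2 -0.23, adjusted p = 0.146).

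SCD and the FADS genes encode desaturases, which put double bonds into fatty acids, and they had the largest falls of this role. SCD (chromosome 9), the desaturase of stearate, had 9.60, 9.24 and 8.09 FPKM in normal serum, against 18.6, 23.7 and 18.6 FPKM in heat-inactivated serum. The ratio of means was 0.442 (log2 -1.09 ± 0.11 SE, adjusted p = 0.000222), and no other member tested reached a 2-fold change as measured on log2(FPKM + 1) with the scaling as deposited. By ratio of means INSIG1 (0.455) and FADS2 (0.396) were also past 2-fold, and with a pseudocount of 0.1 the log2 difference of INSIG1 was -1.12. FADS1 (chromosome 14), which acts on polyunsaturated fatty acids, had 63.8, 59.2 and 62.9 FPKM in normal serum, against 129, 118 and 113 FPKM in heat-inactivated serum. Every normal serum library was thus far below every control, at 0.517 of their mean (log2 -0.94 ± 0.07 SE, adjusted p = 4.64e-05). FADS2 (chromosome 14), the desaturase of the preceding step, was much lower in level, at 1.14, 1.01 and 1.29 FPKM in normal serum, against 3.44, 2.34 and 2.91 FPKM in heat-inactivated serum. Its ratio of means was 0.396, and its log2 difference of -0.85 ± 0.14 SE (adjusted p = 0.00159) understates that ratio because the gene is low. ELOVL6 (chromosome 5), an elongase of saturated fatty acids, had 3.21, 3.85 and 3.19 FPKM in normal serum, against 4.73, 5.85 and 6.33 FPKM in heat-inactivated serum (log2 -0.58 ± 0.12 SE, adjusted p = 0.00496). The ratio of SCD to FASN within a library was 0.304, 0.337 and 0.266 in normal serum and 0.743, 0.952 and 0.885 in heat-inactivated serum. That of FADS1 to ACLY was 0.779, 0.743 and 0.780 in normal serum and 2.07, 1.93 and 1.79 in heat-inactivated serum. These ratios, also chosen after their values were seen and not tested, show unequal change of the paired genes whatever factor scales a library.

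**Figure D3:**
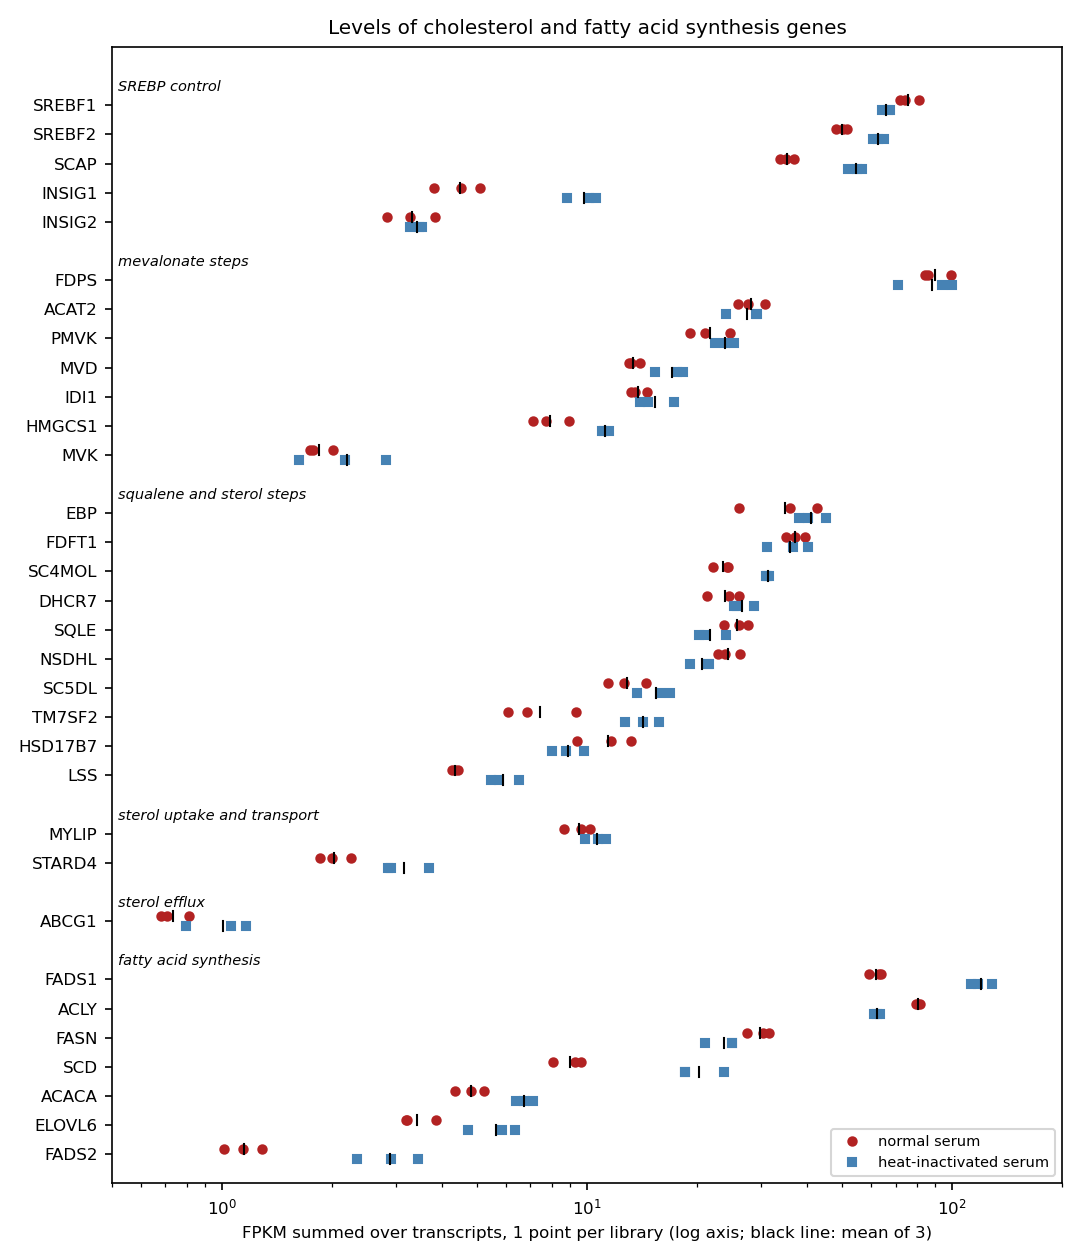
FPKM on a log axis of 32 members in each library (circles, normal serum; squares, heat-inactivated serum; black lines, means of 3), ordered by level within each role. ABCA1, which has a library at 0, is left out. FADS1 shows 2 separate groups, with 59.2 to 63.8 FPKM in normal serum and 113 to 129 FPKM in heat-inactivated serum.

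The levels of the members covered a wide range. FADS1, FDPS, ACLY, SREBF1 and SREBF2 led, with means over all 6 libraries of 90.9, 89.1, 71.5, 71.0 and 56.4 FPKM, and MVK and FADS2 were the lowest of those tested, at 2.02 FPKM each. These means pool groups that differ, and FADS1 could not be ordered against FDPS, ACLY or SREBF1, since it lay below all 3 in every normal serum library and above them in every control. The median coefficient of variation within a group was 8.74% in normal serum and 9.11% in heat-inactivated serum over the 31 members tested. Summed over the 7 fatty acid genes the level was 195, 186 and 191 FPKM in normal serum and 249, 243 and 232 FPKM in heat-inactivated serum. This sum mainly followed FADS1, which alone had 63.8, 59.2 and 62.9 FPKM in normal serum and 129, 118 and 113 FPKM in heat-inactivated serum. ACLY and FASN, also in the sum, went the other way. The 17 sterol synthesis enzymes together had 392, 405 and 350 FPKM in normal serum and 384, 427 and 410 FPKM in heat-inactivated serum, ranges that overlapped. Within the replicate 1 libraries alone, SCD differed by -0.88, FADS2 by -1.05, INSIG1 by -1.01 and SCAP by -0.61 on the log2 scale, and in replicates 2 and 3 by -1.19, -0.75, -0.98 and -0.62. These are examples among the larger falls. Some members not past the threshold had opposite signs in replicate 1 and in replicates 2 and 3. They were FDPS (0.265 and -0.077), FDFT1 (0.246 and -0.045), ACAT2 (0.192 and -0.040), INSIG2 (-0.246 and 0.062) and DHCR7 (0.014 and -0.230). Replicate 1 holds 1 library of each group and allows no test.

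How the libraries are scaled bears on the small differences. Rescaling to the same total FPKM moved the median log2 difference of all genes to -0.12, scaling to an equal upper quartile also to -0.12, and quantile normalization to -0.02. The share of all calls that were higher was 51.6% as deposited and 34.7% after rescaling to the total, 35.2% with equal upper quartiles and 47.2% with quantile normalization. The median of the members was -0.39 after rescaling to the total, -0.39 with equal upper quartiles and -0.25 with quantile normalization. The plot of scalings shows the called members one by one. Of the 14 lower members all stayed called under these 3 scalings, apart from STARD4 with quantile normalization. Of the 4 higher members 0 were called after rescaling to the total, where ACLY had a difference of 0.23 (adjusted p = 0.0621), and ACLY alone was called under each of the other two. The background of higher genes was 16.5% after rescaling to the total, 24.3% with quantile normalization and 19.6% with equal upper quartiles, and that of lower genes 31.0%, 27.2% and 36.1%. With equal upper quartiles PMVK, IDI1, SC5DL, DHCR7 and MYLIP were also called lower, which made 19 lower members. Rescaling to the total of transcripts of at least 300 bases, chosen after the data were seen, gave 20 lower and 1 higher, beside 37.1% and 18.2% of all genes. Within replicates 2 and 3 the calls were 13 lower and 1 higher, beside 21.7% and 25.3%. The higher calls of SREBF1, NSDHL and FASN thus rest on the scaling as deposited, although all 4 differences stayed positive under every scaling run. FDPS, ACAT2 and FDFT1, called under no scaling, changed sign, as did INSIG2 with quantile normalization.

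**Figure D4:**
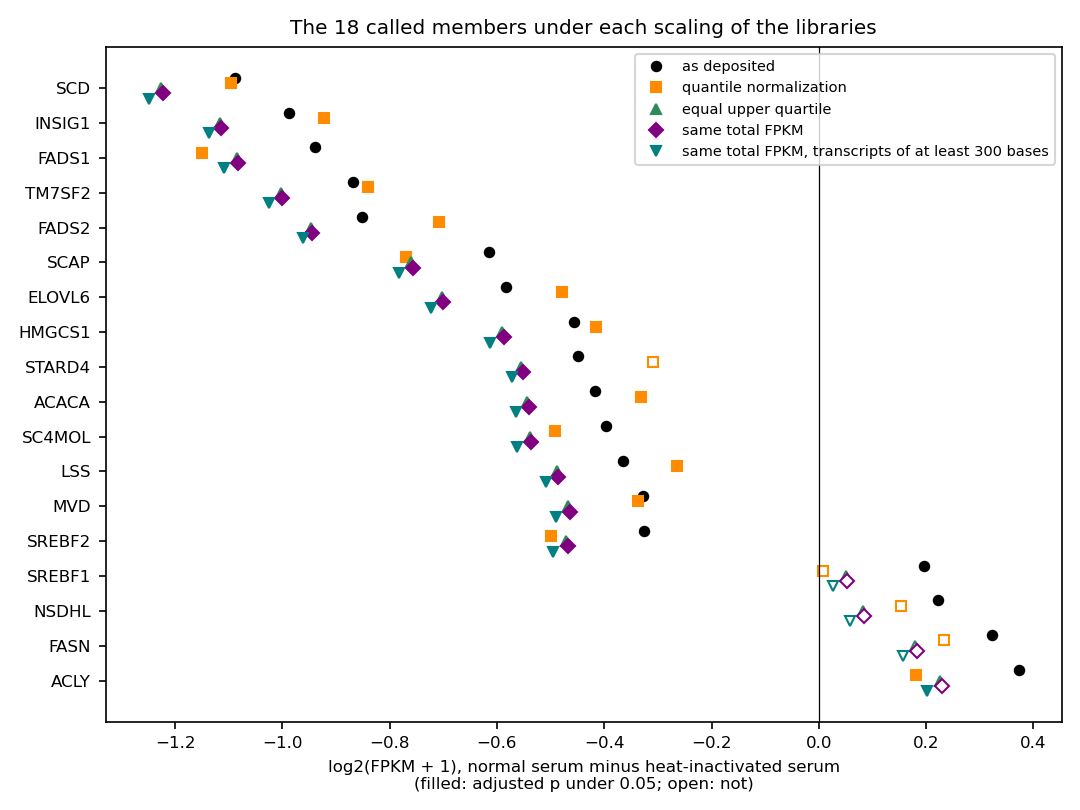
Log2 difference (normal serum minus heat-inactivated serum, x axis) of the 18 called members under 5 scalings of the libraries; filled symbols have an adjusted p under 0.05. The lower members stay to the left of 0 under every scaling, and SREBF1 lies between 0.20 as deposited and 0.01 with quantile normalization.

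Other genes of sterol and fatty acid metabolism were read from 7 further lists with 91 genes, of which 80 were tested. Among them 25 were higher and 25 lower, or 31.2% each, beside the 27.8% and 26.1% of all genes, and their median difference was 0.01. Rescaling to the same total FPKM left 15 higher. In the list of lipoprotein and lysosomal cholesterol uptake 7 of 12 were lower and 2 higher, with a median of -0.43. VLDLR, a receptor for very low density lipoprotein, had 31.3, 32.5 and 38.3 FPKM in normal serum, against 73.6, 69.2 and 84.3 FPKM in heat-inactivated serum (log2 -1.13 ± 0.10 SE, adjusted p = 0.000122). LRP1, a large endocytic receptor, fell to 0.540 of the mean of the controls (adjusted p = 6.55e-05), and STARD5, a sterol carrier, to 0.357 (adjusted p = 2.80e-05). LRP8, a related receptor, went the other way, with 10.4, 10.9 and 11.7 FPKM in normal serum, against 4.25, 5.37 and 4.37 FPKM in heat-inactivated serum (adjusted p = 0.000120).

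Among the 10 tested genes of LXR and oxysterol biology 3 were higher (30%) and 4 lower (40%), beside 27.8% and 26.1% of all genes. NCOA5, a nuclear receptor coactivator, rose 1.51 times in mean FPKM (adjusted p = 0.000251). HSD3B7, an enzyme of bile acid synthesis, fell to 0.393 and the corepressor NCOR1 to 0.717 of the mean of the controls. SREBP processing and degradation in the endoplasmic reticulum had 4 higher and 4 lower of 12, or 33.3% each. MBTPS1, the protease that makes the initial cut in SREBPs, had 40.9, 41.1 and 40.2 FPKM in normal serum, against 58.1, 55.9 and 58.2 FPKM in heat-inactivated serum (log2 -0.48 ± 0.05 SE, adjusted p = 0.000286). The ATPase VCP rose by 0.58 on the log2 scale (adjusted p = 0.000431) and its cofactor UFD1L rose 1.77 times in mean FPKM (adjusted p = 0.000874).

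Further from the core, fatty acid activation, elongation and desaturation had 6 higher (33.3%) and 5 lower (27.8%) of 18. The shares of all genes, 27.8% higher and 26.1% lower, stand beside this count and those of the lists that follow. ELOVL5, an elongase of polyunsaturated fatty acids, had 52.9, 42.7 and 48.6 FPKM in normal serum, against 96.7, 87.0 and 84.6 FPKM in heat-inactivated serum (adjusted p = 0.000233), and LPIN1, a phosphatidate phosphatase, fell to 0.494 of the mean of the controls. MCAT, of mitochondrial fatty acid synthesis, rose 1.73 times and GPAM, an acyltransferase of glycerolipid synthesis, 1.58 times. The list of other isoprenoid branches had 4 of 11 higher (36.4%) and 2 lower (18.2%). PDSS1 (ubiquinone side chain), NUS1 (dolichol synthesis) and RABGGTB (prenylation of Rab proteins) stood at 1.98, 1.61 and 1.45 times the mean of the controls. RABGGTA, the partner of RABGGTB, stood at 0.740 of the mean of the controls. In storage, 3 of 8 were higher (37.5%) and 1 lower (12.5%). The lipase gene PNPLA2 rose 1.43 times and DGAT1, which makes triglyceride, fell to 0.721, while the lipid droplet genes PLIN3 and PLIN2 rose 1.31 and 1.54 times. Fatty acid oxidation had 3 of 9 higher (33.3%) and 2 lower (22.2%), with PPARD 1.71, ACADM 1.34 and CPT2 1.17 times as high and ACADVL at 0.852. Some of these calls ended without 1 of the libraries. CPT2 was lost without any library but normal serum replicate 1 (adjusted p from 0.0684 to 0.129), and PLIN2 without normal serum replicate 1 (0.0951), normal serum replicate 2 (0.0832) or heat-inactivated serum replicate 2 (0.0650). PLIN3 was lost without normal serum replicate 2 (adjusted p = 0.0717) or heat-inactivated serum replicate 1 (0.0513), and ACADVL without heat-inactivated serum replicate 2 (0.0512). Scaling also ended some of them. After rescaling to the total ACADM (adjusted p = 0.0629), PLIN3 (0.129), PLIN2 (0.0682) and CPT2 (0.563) were lost, and with equal upper quartiles PLIN3 (0.0878), PLIN2 (0.0850) and CPT2 (0.380). PLIN3 was lost with quantile normalization too (adjusted p = 0.0519), and the total of transcripts of at least 300 bases left PLIN3 at 0.126, PLIN2 at 0.0927 and CPT2 at 0.585. With low genes kept in the fit PLIN2 (adjusted p = 0.0630) and CPT2 (0.0515) were not called, and within replicates 2 and 3 neither were PLIN2 (0.0821), CPT2 (0.0647) and ACADVL (0.0725).

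**Figure D5:**
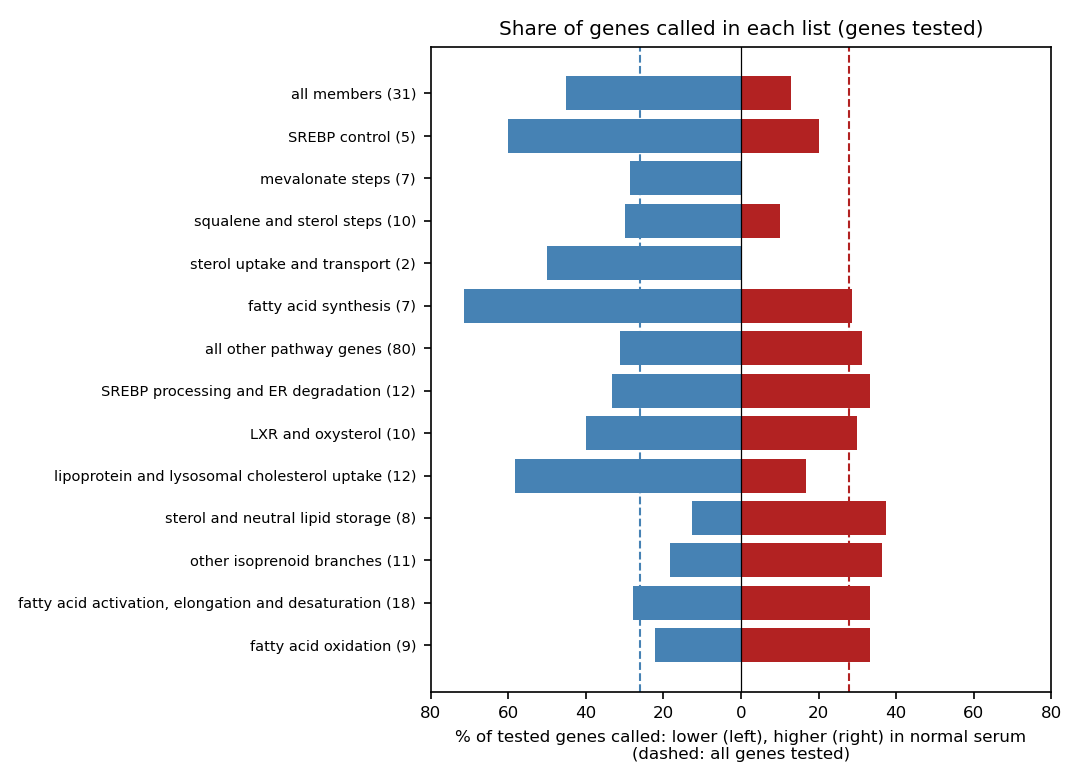
Share of tested genes called lower (bars to the left) and higher (bars to the right) in normal serum for the members by role and for the 7 further lists, with the number tested in brackets and the shares of all genes as dashed lines. Fatty acid synthesis (5 of 7 lower) and lipoprotein and lysosomal cholesterol uptake (7 of 12 lower) extend furthest to the left among lists with more than 5 genes. SREBP control, with 5 genes, had 3 lower (60%), a share past the 58.3% of the uptake list.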

How the data were processed

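Polyadenylated RNA of 6 libraries, 3 in normal serum and 3 in heat-inactivated serum, was sequenced from TruSeq version 2 libraries, per the labels' protocols, which do not establish strand. TopHat2 (2.0.7), Cufflinks (2.1.1) and Cuffdiff (2.1.1) are named in the submitters' processing notes. The genome build was one not given in the sources used here. Per transcript and library, the authors deposited FPKM. They also deposited FPKM per treatment, a log2 fold change and p-values and q-values per transcript, used here only where named. Chromosomes are as the table names them, with no start or end.

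Transcripts sharing a symbol were summed, which gave 24932 genes from 44605 transcripts. Of 7008 identifiers without a symbol 256 were named from a table of gene names. Genes averaging 1 FPKM or more entered a limma 3.58.1 fit of log2(FPKM + 1), run in R 4.3.3 (trended empirical Bayes variance, Benjamini-Hochberg adjustment over all genes, treatment as the only term), and transcripts likewise. The fit was tested on simulated data. Errors are SD over libraries or SE of the fit, and ratios are of mean FPKM. Depth was read from genes with 1 transcript of over 1500 bases at fewer than 6 fragments, where values within 0.1 of a whole number of fragments counted as whole. The members and lists were chosen with earlier results of these data known. All members are named, with up to 4 called genes of each further list by adjusted p. Alternatives varied the pseudocount (0.1 and 5), the filter (none and 5 FPKM), the scaling, the variance model, the transcripts and the libraries. Some genes of the pathway are not reported here.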

Additional observations from a re-analysis of the deposited data

How the results depend on the processing

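Over 19 alternatives fixed with the design and 2 chosen after seeing the data (the total of transcripts of at least 300 bases, and removal of the trend with transcript length), 562 of 646 differences of single members kept their direction and their side of the threshold. Of the 14 lower members 10 did so in every alternative they entered. The exceptions were MVD, SREBF2, ACACA and STARD4, each in 1 alternative given in the report. The number of lower members lay between 11 and 20. The number of higher members, 4 as reported, was 0 after rescaling to the same total FPKM, 1 each with quantile normalization, equal upper quartiles, replicates 2 and 3 only and the total of transcripts of at least 300 bases, and 1 to 4 when 1 library was left out. The further pathway genes had 15 higher after rescaling to the same total FPKM, against 25. The member transcripts called, 15 as reported, were 9 within replicates 2 and 3 and 8 to 15 without 1 library.

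Differences that changed sign belonged to members not past the threshold, with the exception of SREBF2, and the cause was not tested. SREBF2 (1.27) and MYLIP (0.068) did so with each gene read from its highest transcript alone. FDPS, ACAT2 and FDFT1 did so after rescaling to the total (-0.11, -0.10 and -0.089), with quantile normalization (-0.16, -0.059 and -0.089), with equal upper quartiles (-0.11, -0.10 and -0.092), with the total of longer transcripts (-0.13, -0.13 and -0.12) and within replicates 2 and 3 (-0.077, -0.040 and -0.045). Leaving out 1 library gave ranges of -0.11 to 0.13 for FDPS, -0.051 to 0.092 for ACAT2, -0.045 to 0.13 for FDFT1 and -0.13 to 0.043 for INSIG2, which was 0.090 with quantile normalization and 0.062 within replicates 2 and 3.

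Libraries of the same replicate number in the 2 groups had correlations of their deviations of 0.193, 0.0333 and 0.00593, and normal serum replicate 2 correlated best with replicate 3 of the controls (0.106), so the numbers were not taken to pair the samples. With a replicate block 6775 genes were called in place of 6381, and of the members 15 lower and 5 higher, the additions being SC5DL (adjusted p = 0.0163) and SQLE (0.026). At this depth the efflux genes are limited by few fragments.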

Other observations

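The transcripts of SCD and FADS2 are the 2 member transcripts that, in the authors' deposited table, carry all 3 marks of passing (minimum FPKM, minimum fold change and maximum q-value), while 10 carry the mark for the q-value. The authors' deposited log2 fold changes of these transcripts were -1.18 for SCD and -1.34 for FADS2.

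For SREBF2 the columns of the authors' deposited table differ among themselves. The 3336-base transcript is listed there at 42.1 FPKM for normal serum and 63.8 FPKM for heat-inactivated serum, with a log2 fold change of -0.02. The mean of its 3 heat-inactivated serum libraries is 42.6 FPKM, and that of replicates 2 and 3 alone is 63.8 FPKM. The 3342-base transcript is listed in the authors' deposited table at 7.88 FPKM for normal serum and 0.0496 FPKM for heat-inactivated serum with a log2 fold change of -1.36, which has the sign opposite to that of the listed values. The mean of its 3 heat-inactivated serum libraries is 20.2 FPKM. In both transcripts the listed fold change thus equals that of the means of all 3 libraries, while the listed level for heat-inactivated serum equals that of replicates 2 and 3.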
